A study of Rattus norvegicus with 35 samples.

Results

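Tamoxifen and estradiol were compared in the hippocampus of ovariectomised rats, using the 5 libraries labelled as given tamoxifen and the 5 labelled as given estradiol, 10 of the 35 libraries of the series. Female Sprague Dawley rats were ovariectomised or sham-operated at 6 months of age and left for a 2-week washout. Treatment then ran for 7 days as 1 intraperitoneal injection per day. The estradiol group received 0.16 mg/kg estradiol and the tamoxifen group 3.23 mg/kg tamoxifen. All animals of both groups lacked ovaries, and an ovariectomised vehicle group of 5 libraries served as the reference level for single genes. The 2 doses differ, so the comparison is between these regimens and not between equal amounts of 2 ligands. Whole-hippocampus poly(A) RNA was sequenced, and in such bulk tissue fewer cells of a type and less RNA per cell cannot be told apart.

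Estradiol acts through the nuclear receptors encoded by Esr1 and Esr2, which bind DNA at estrogen response elements, and through membrane signalling that includes the receptor Gper1. In the hippocampus it is known to act on synapses, blood vessels and energy metabolism. Tamoxifen is a selective estrogen receptor modulator: it competes with estradiol for the receptors, and whether the receptor is blocked or activated depends on the tissue and on the coregulators present. Tamoxifen also binds enzymes of the late sterol pathway, among them the sterol isomerase encoded by Ebp.

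The libraries of the tamoxifen group fell into 2 kinds. The share of counts from Rn7sl1, an RNA that is part of the particle targeting secreted proteins to the endoplasmic reticulum, was 4.99 to 5.88% in the 5 estradiol libraries, all above the cut of 4.15% that separates high from low libraries in the series. It was 5.47 and 6.49% in tamoxifen replicates 1 and 2, and 3.23, 3.24 and 3.34% in replicates 3, 4 and 5. The comparison therefore sets 5 high libraries against 2 high and 3 low ones. What separates the low libraries is not given in the labels and was not tested. In a model with group and this split together, 7473 of 14411 genes differed between low and high libraries. That term is estimated within the groups that hold both kinds. Besides tamoxifen these were exemestane (4 of 5 low), anastrozole (2 of 5) and vehicle (1 of 5). Under raloxifene 5 of 5 were low, and under sham and estradiol 0 of 5. The split thus partly follows treatment, and the covariate cannot fully separate the 2. Within the tamoxifen group, 2 libraries of the same kind differed by 3.84 to 9.07 times counting error (chi-squared per degree of freedom), and 2 of different kinds by 24.4 to 31.7 times. Among the estradiol libraries this ratio was 2.53 to 7.04. Folds between tamoxifen and estradiol are given below without the split and, beside that, with it as a covariate, either as a value or as an interval.

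Assigned counts per library ran from 5.58 to 8.37 M under estradiol and from 6.06 to 10.3 M under tamoxifen. Group means were 6.58 ± 1.1 and 7.75 ± 1.95 M (SD, n = 5; exact two-sided permutation p = 0.214, 0.285 adjusted over 4 library measures, where the smallest p the design can give is 0.00794). Markers of hippocampal excitatory neurons were present in all 10 libraries, with a summed level of 3550 to 5120 CPM (counts per M of the scaled library total, M being 1000000) for 10 genes. Ttr, the transthyretin of choroid plexus, exceeded 1000 CPM in estradiol replicate 2 and tamoxifen replicates 2 and 4, and lay between 0.495 and 4.33 CPM in the other 7.

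Without the covariate the groups differed widely. Of 14411 genes tested, 2053 (14.2%) had an adjusted p under 0.05 in edgeR, 1390 (9.65%) of them higher in tamoxifen and 663 (4.60%) lower. With the covariate 0 passed (0%), while 1085 (7.53%) had an unadjusted p under 0.05, 636 (4.41%) higher and 449 (3.12%) lower. The folds kept their sign for all 2053 genes when the covariate entered, but at 1443 of them (70.3%) the fold shrank to 0.5 of its size or less. Both fits use the same libraries and the first chose the 2053, so the kept sign is no separate evidence of direction. The median absolute log2 fold change of the 2053 went from 0.390 to 0.151. At 466 of the 2053 (22.7%) the 5 tamoxifen values did not overlap the 5 estradiol values, and 823 (40.1%) kept an unadjusted p under 0.05 with the covariate. The counts for gene lists given here stand beside these shares. Over all tested genes, tamoxifen lay entirely above estradiol at 318 (2.21%) and entirely below at 346 (2.40%).

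The number of genes called depended on the fit and on which libraries entered. With all 35 libraries it was 93 when the Rn7sl1 share entered as a continuous covariate and 232 with the per-gene factors of the deposited normalized table. With the 10 tamoxifen and estradiol libraries fitted alone it was 0 in edgeR, with 4220 at an unadjusted p under 0.05. It was 0 without tamoxifen replicate 3, 4 or 5, the low libraries, and 3940 and 4228 without tamoxifen replicates 1 and 2, the high ones. Leaving out estradiol replicate 1 or 5 gave 1 and 2 calls, and leaving out replicate 2, 3 or 4 gave 1845, 851 and 736. In the libraries of high Rn7sl1 alone, where 2 tamoxifen libraries stand against 5 estradiol ones, 0 genes passed in edgeR and 711 had an unadjusted p under 0.05. No gene named below was called in all 10 fits without 1 library. The most among the 97 genes named by rule was 7 of 10, for Eng. The others of the 97 passed in at most 5. At most 2 genes passed in the fits without estradiol replicate 1 or 5 or tamoxifen replicate 3, 4 or 5. Besides Eng, the fit without estradiol replicate 5 called LOC108350502, which is not among the 97.

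**Figure D1:**
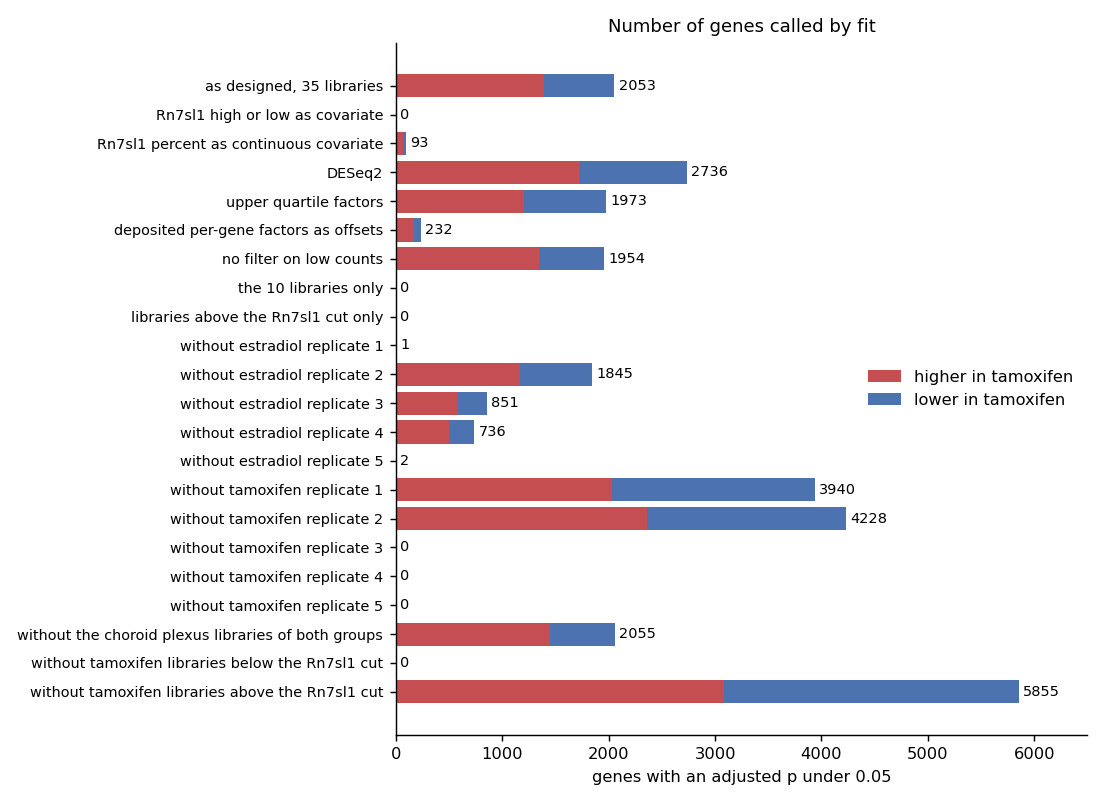
Number of genes with an adjusted p under 0.05 between tamoxifen and estradiol in each fit, stacked by direction (red higher in tamoxifen, blue lower). The count is 2053 as designed, 0 with the Rn7sl1 split as a covariate or without any single low tamoxifen library, and 5855 when the 2 high tamoxifen libraries are left out.

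The vascular gene Eng had the smallest p of all genes in both fits. It encodes endoglin, a coreceptor for TGF-β and bone morphogenetic proteins on endothelial cells. Eng stood at 22.9, 24.5, 27, 24.7 and 26.1 CPM in estradiol replicates 1 to 5 and at 17.6, 20.6, 13.9, 13.2 and 11.7 CPM in tamoxifen replicates 1 to 5. All 5 tamoxifen libraries lay below all 5 estradiol libraries, the 3 low libraries furthest. The group means were 25.1 ± 1.59 and 15.4 ± 3.62 CPM (SD, n = 5). The log2 fold change was -0.71 ± 0.12 (SE; edgeR adjusted p 0.0142). With the covariate it was -0.54 ± 0.11 (95% interval -0.76 to -0.33), with an unadjusted p of 1.11e-05 and an adjusted p of 0.16. In the high libraries alone the fold was -0.40 ± 0.12. Without the covariate the call was lost without tamoxifen replicate 3, 4 or 5, at folds of -0.69, -0.66 and -0.63. With it, DESeq2 gave an adjusted p of 0.0478, and edgeR gave 0.0316 without tamoxifen replicate 2.

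The other vascular genes lay on the same side. Of 11 endothelial and mural cell genes tested, 3 fell and 0 rose without the covariate, all 11 folds were negative, and their median was -0.312, against 0.000113 over all genes. With the covariate all 11 stayed negative, the median was -0.224, and 5 had an unadjusted p under 0.05. Flt1, the endothelial receptor for vascular endothelial growth factor, was at 78.9, 85.3, 66.7, 71.0 and 76.7 CPM under estradiol and 53.0, 77.3, 60.0, 59.5 and 55.8 under tamoxifen. Tamoxifen replicate 2 lay inside the estradiol range and the other 4 below it. The fold of Flt1 hardly moved with the covariate, from -0.31 ± 0.094 (adjusted p 0.0316 in edgeR) to -0.28 ± 0.10. Pdgfrb, the receptor that marks pericytes, went from 37.1 ± 2.27 to 29.7 ± 4.92 CPM, a fold of -0.32 ± 0.10 (adjusted p 0.0386 in edgeR) and of -0.22 ± 0.10 with the covariate. Cxcl12, a chemokine of vessels and meninges among other cells, was at 61.9, 61.8, 56.4, 58.5 and 69.5 CPM under estradiol and 42.2, 53.8, 49.9, 39.4 and 47.7 under tamoxifen. The groups did not overlap, and high and low tamoxifen libraries were alike in mean, at 48.0 and 45.7 CPM. Its fold was -0.40 ± 0.083 without and -0.37 ± 0.088 with the covariate. Vwa1, a matrix protein of basement membranes, was lower, at -0.67 ± 0.14, and at -0.42 ± 0.10 with it. Cxcl12 and Vwa1 are not among the 11 listed genes and were named for their small p with the covariate. The summed level of the 11 genes was 263 to 279 CPM under estradiol, 189 to 221 CPM in the 3 low tamoxifen libraries, and 204 and 295 CPM in the 2 high ones, with replicate 2, a choroid plexus library, above every other. The number called was 9 without tamoxifen replicate 2, 1 without estradiol replicate 1, 2 or 5, and 0 without tamoxifen replicate 3, 4 or 5. Without the 3 libraries that hold choroid plexus it was 6, with a median of -0.438.

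**Figure D2:**
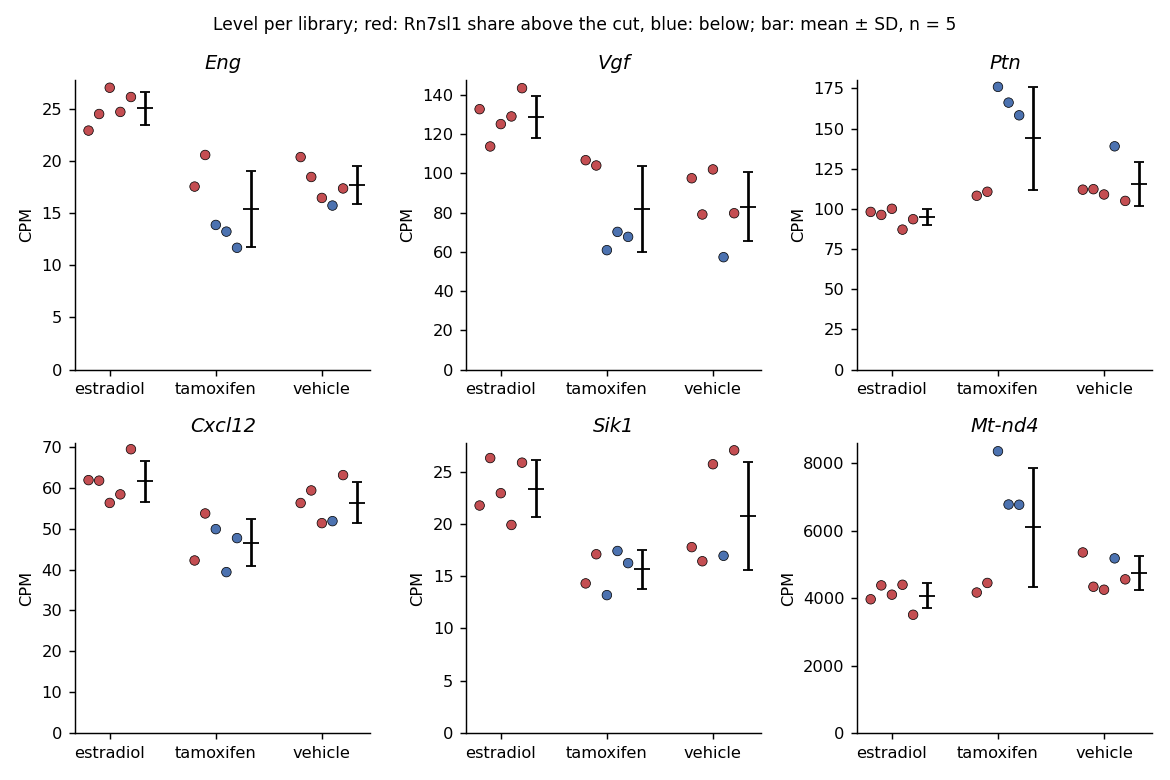
CPM of 6 genes in each library of estradiol, tamoxifen and vehicle (5 each; red above the Rn7sl1 cut, blue below; black bars mean ± SD). Eng, Vgf, Cxcl12 and Sik1 lie below the estradiol range in all 5 tamoxifen libraries, Ptn lies above it, and for Mt-nd4 the 2 high tamoxifen libraries sit beside the estradiol ones.

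Vgf, the precursor of several neuropeptides and a gene that neurotrophins and cAMP signalling induce, was lower in tamoxifen. It stood at 133, 114, 125, 129 and 143 CPM under estradiol and at 107, 104, 60.9, 70.2 and 67.6 under tamoxifen, with no overlap. The 2 high tamoxifen libraries lay just under the lowest estradiol library and the 3 low ones well below. The fold was -0.65 ± 0.14 (adjusted p 0.0227 in edgeR) and -0.36 ± 0.085 with the covariate (95% interval -0.53 to -0.18). The vehicle libraries ran from 57.3 to 102 CPM, and estradiol differed from them by 0.63 ± 0.14 and tamoxifen by -0.02 ± 0.14, both comparisons sharing the vehicle libraries. With the covariate these were 0.54 ± 0.078, called in edgeR with an adjusted p of 0.000541, and 0.19 ± 0.082, not called. Of 19 secretory granule genes, 2 were called higher and 1, Vgf, lower, with a median of 0.0739, and 0.0529 with the covariate. The 2 higher ones were Scg3, a granin that sorts cargo into granules, at 0.29 ± 0.083 (0.11 ± 0.055 with the covariate), and Nucb2, the nesfatin precursor, at 0.28 ± 0.081 (0.21 ± 0.085).

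Sik1, a kinase that cAMP signalling induces and that in turn restrains CREB coactivators, was at 21.8, 26.3, 22.9, 19.9 and 25.9 CPM under estradiol and 14.3, 17.1, 13.2, 17.4 and 16.2 under tamoxifen. The groups did not overlap, and the high and low tamoxifen libraries had means of 15.7 and 15.6 CPM. Its fold was -0.57 ± 0.14 (adjusted p 0.0227 in edgeR), -0.48 ± 0.15 with the covariate and -0.58 ± 0.18 in the high libraries alone. Of the 23 immediate-early genes tested, which neuronal activity induces, 2 fell and 0 rose, 20 folds were negative and the median was -0.373. Jun, a subunit of the AP-1 factor, was the other one called. It went from 117 ± 7.47 to 95.3 ± 16.1 CPM, with 112 CPM in the high and 84.0 in the low tamoxifen libraries, so that its fold of -0.29 ± 0.098 became -0.11 ± 0.068 with the covariate. With the covariate 21 of the 23 were negative, the median was -0.197, and 1 had an unadjusted p under 0.05, Sik1. DESeq2 without the covariate called 6 of the 23, and edgeR called 5 and 6 without tamoxifen replicates 1 and 2, 1 without estradiol replicate 3 or 4, and 0 without estradiol replicate 1 or 5 or tamoxifen replicate 3, 4 or 5.

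The promoters of Vgf and Sik1 are shown because both genes are known targets of CREB and both were lower in tamoxifen. The sequences are the 250 bases before each gene start in RefSeq (assembly GRCr8; Vgf, chr12:25277021-25277270, minus strand; Sik1, chr20:9958647-9958896, minus strand). They are written 5′ to 3′ on the gene's strand, with matches to the cAMP response element TGACGTCA or its half-site TGACG, on either strand, in capitals.
Vgf promoter: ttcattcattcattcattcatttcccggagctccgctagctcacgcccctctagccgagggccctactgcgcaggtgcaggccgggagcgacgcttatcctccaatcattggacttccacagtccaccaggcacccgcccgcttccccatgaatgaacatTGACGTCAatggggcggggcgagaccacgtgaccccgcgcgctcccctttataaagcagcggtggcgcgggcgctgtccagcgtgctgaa
Sik1 promoter: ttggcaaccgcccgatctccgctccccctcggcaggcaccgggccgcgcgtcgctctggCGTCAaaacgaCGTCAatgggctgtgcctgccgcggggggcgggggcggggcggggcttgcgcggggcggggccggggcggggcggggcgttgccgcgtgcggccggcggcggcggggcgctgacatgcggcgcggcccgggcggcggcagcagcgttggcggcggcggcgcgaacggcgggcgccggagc
Vgf carries the full element once, starting 90 bases before the gene start, and Sik1 carries 2 half-sites on the opposite strand, starting 191 and 180 bases before it. Of 10427 promoters of tested genes matched by symbol, 2.88% held TGACGTCA, against 3.50% of those of called genes that were higher (1029) and 3.36% of those lower (506). The half-site TGACG, whose matches include the full element, was in 27.6% of all, 35.9% of the higher and 28.7% of the lower. The palindromic estrogen response element, GGTCA followed by 3 bases of any kind and TGACC, was found in 1 of the 10427 windows and in 0 of those of the called genes. Its half-site GGTCA was in 32.4% of all, 30.4% of the higher and 32% of the lower. On either strand this half-site occurred 1 time in the Vgf window, not in capitals above, and 0 times in that of Sik1. These are counts of letters in a short window and were not set against any binding data.

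For the steroid system itself, of 22 estrogen receptor, coregulator and steroid enzyme genes 1 rose and 3 fell, with a median of -0.107, and -0.0428 with the covariate. Esr1, the receptor both ligands bind, was at 0.996, 0.888, 2.13, 2.77 and 1.17 CPM under estradiol and 2.27, 2.65, 3.29, 2.44 and 3.17 under tamoxifen. The ranges overlapped, and the 4 lowest values were all from estradiol libraries. The fold was 0.76 ± 0.30 (adjusted p 0.0728 in edgeR, not called) and 0.75 ± 0.33 with the covariate (95% interval 0.08 to 1.42). Esr2, at 1.20 ± 0.598 and 1.06 ± 0.393 CPM, and Gper1, at 1.07 ± 0.603 and 0.711 ± 0.414 CPM, were measured at low levels, with intervals of -1.51 to 0.36 and -1.36 to 0.57 for the fold with the covariate. Cyp19a1, the aromatase that makes estradiol, was at 0.829 ± 0.430 and 1.43 ± 0.702 CPM, a fold of 0.77 ± 0.44 (adjusted p 0.209 in edgeR) and of 0.73 ± 0.47 with the covariate. Pgrmc1, a membrane-associated haem-binding protein, lay above the estradiol range in all 5 tamoxifen libraries, at 106 to 120.3 against 124 to 159 CPM. Its fold was 0.35 ± 0.084 (adjusted p 0.0227 in edgeR) and 0.18 ± 0.065 with the covariate. Among the lower ones were the estrogen-related orphan receptor gene Esrra at -0.43 ± 0.13, and Sts, which encodes steroid sulfatase, at -0.50 ± 0.17. With the covariate these stood at -0.19 ± 0.085 and -0.16 ± 0.12.

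Classical estrogen-responsive genes gave 1 call higher and 1 lower of 21, with a median of -0.0781, and -0.00469 with the covariate. Pgr, the progesterone receptor and a standard target of estradiol in reproductive tissue, was at 22.4, 22.4, 20.6, 23.1 and 20.6 CPM under estradiol and 22.8, 24.7, 23.1, 25.2 and 21.3 under tamoxifen. Tamoxifen replicates 2 and 4 lay above the estradiol range and the other 3 within it, and the fold was 0.10 ± 0.1, with a 95% interval of -0.11 to 0.30, and 0.10 ± 0.11 with the covariate. Greb1, a cofactor induced by the receptor in breast cells, was at 7.64 to 10.4 against 4.12 to 9.63 CPM, a fold of -0.44 ± 0.21 (adjusted p 0.138 in edgeR). With the covariate its interval was -0.89 to 0.07. Nrip1, a ligand-dependent corepressor, was higher in tamoxifen, from 85.0 ± 5.21 to 109 ± 13 CPM, at 0.35 ± 0.089, and 0.17 ± 0.066 with the covariate. Cited2, a transcription cofactor, was lower. The 5 estradiol libraries were within 31 to 31.6 CPM, the 2 high tamoxifen libraries averaged 28.6 and the 3 low ones 22.2 CPM. Its fold went from -0.34 ± 0.11 to -0.16 ± 0.09.

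**Figure D3:**
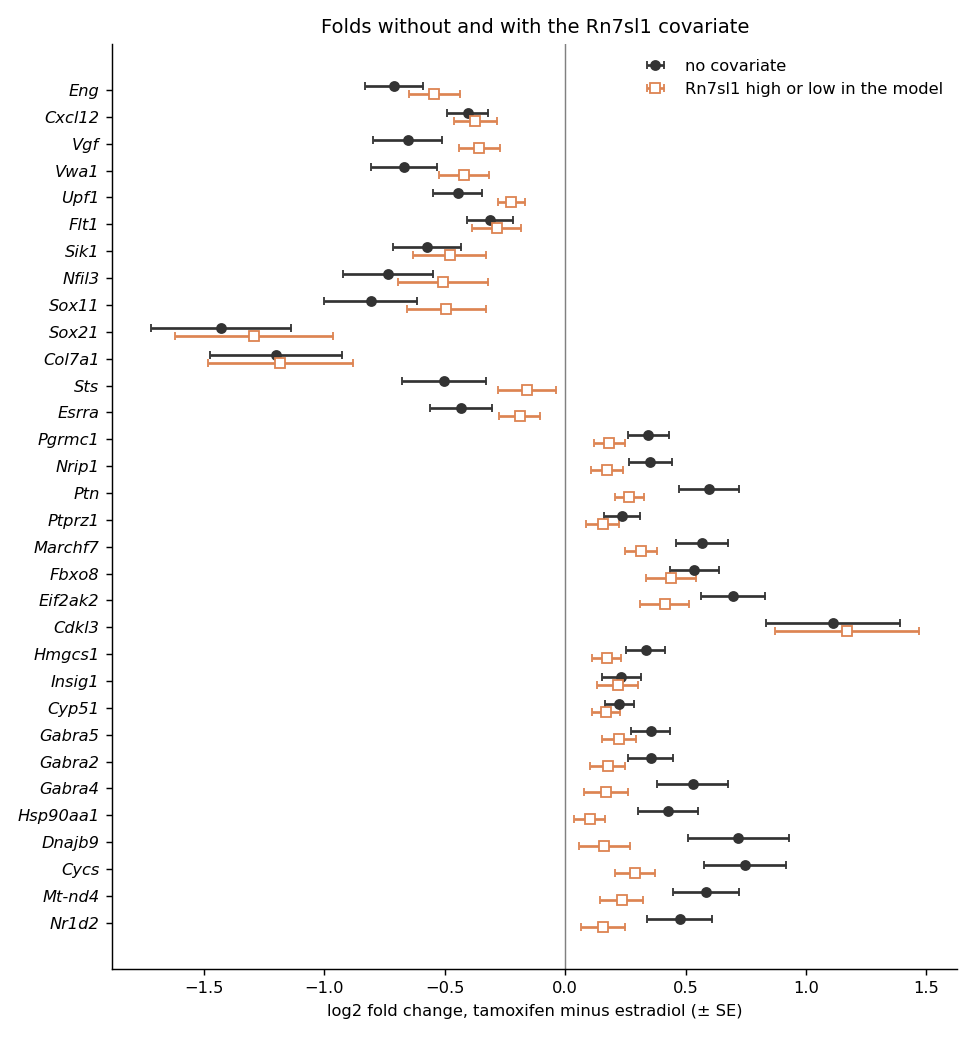
Log2 fold change of tamoxifen against estradiol (± SE) for 32 named genes without the covariate (filled circles) and with the Rn7sl1 split in the model (open squares). Sik1, Cxcl12, Flt1, Col7a1, Sox21, Cdkl3 and Insig1 differ little between the fits, while Mt-nd4, Hsp90aa1, Dnajb9 and Gabra4 move most of the way to 0.

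Ptn encodes pleiotrophin, a heparin-binding growth factor of neurons and glia, and Ptprz1 encodes the receptor phosphatase that binds it. Ptn stood at 98.2, 96.3, 100.1, 87.1 and 93.6 CPM under estradiol and 108, 111, 176, 166 and 158 under tamoxifen. The groups did not overlap, with the 2 high tamoxifen libraries just above the estradiol range and the 3 low ones far above it. The fold was 0.60 ± 0.13 (adjusted p 0.0227 in edgeR) and 0.27 ± 0.06 with the covariate. Ptprz1 ran from 344 to 363 CPM under estradiol and from 384 to 466 under tamoxifen, again without overlap, at a fold of 0.24 ± 0.073 (0.16 ± 0.07 with the covariate). These were the 2 genes called of 18 for neurotrophin and pleiotrophin signalling, both higher, while the list's median was 0.0175 (-0.0257 with the covariate).

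Sterol synthesis genes gave small differences, some of them little affected by the covariate. The 17 genes of the early pathway and of cholesterol uptake included 2 that rose and 1 that fell. Of 13 late sterol genes, 2 rose and 1 fell. Insig1, which retains the sterol sensor in the endoplasmic reticulum, was at 57.6, 45.5, 53.9, 54.1 and 50.2 CPM under estradiol and 64.7, 60.4, 63.1, 58.4 and 60.8 under tamoxifen. All tamoxifen libraries lay above all estradiol ones, high and low alike, and the fold was 0.23 ± 0.08 (adjusted p 0.0474 in edgeR) and 0.22 ± 0.085 with the covariate. Cyp51, the lanosterol demethylase, ran from 90.6 to 100.2 against 106 to 122 CPM, without overlap, at 0.22 ± 0.06 and 0.17 ± 0.058. Hmgcs1, the synthase before the rate-limiting reductase, went from 0.33 ± 0.081 to 0.17 ± 0.061 and the sterol oxidase gene Msmo1 from 0.21 ± 0.071 to 0.12 ± 0.066. Scap, the sterol sensor, and Tm7sf2, a sterol reductase gene, were lower at -0.28 ± 0.087 and -0.42 ± 0.14, and stood at -0.09 ± 0.049 and -0.16 ± 0.11 with the covariate. Ebp, whose product tamoxifen binds, was at 5.57 to 7.23 CPM under estradiol and 5.64 to 7.26 under tamoxifen. Its fold was -0.08 ± 0.15 without and 0.02 ± 0.16 with the covariate, so its sign turned between the fits, and the interval with the covariate was -0.31 to 0.34. The list medians were -0.000607 and -0.0692 without the covariate and 0.0300 and 0.0438 with it, for the early and late steps in turn.

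Several gene groups differed between tamoxifen and estradiol mainly in the 3 low libraries. The clearest was the mitochondrial genome. Of its 13 protein genes, 11 rose and 0 fell, all 13 folds were positive, and the median was 0.441, and 0.177 with the covariate. Mt-nd4, a subunit of respiratory complex I, was at 3966, 4378, 4102, 4396 and 3506 CPM under estradiol and 4166, 4450, 8358, 6778 and 6771 under tamoxifen. The 2 high tamoxifen libraries lay within or just above the estradiol range and the 3 low ones far above. Its fold was 0.58 ± 0.14 (adjusted p 0.0227 in edgeR), 0.23 ± 0.09 with the covariate and 0.08 ± 0.097 in the high libraries alone. The 13 genes together took 4.48 to 5.18% of the counts under estradiol, 4.94 and 5.07% in the high and 6.94 to 7.77% in the low tamoxifen libraries. The mean shares were 4.92 ± 0.282 and 6.34 ± 1.26% (SD, n = 5; exact two-sided permutation p = 0.0794, adjusted 0.285). The number of the 13 called was 0 without estradiol replicate 1 or 5 or tamoxifen replicate 3, 4 or 5, and 6 without estradiol replicate 3.

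Nuclear genes of the respiratory chain went in both directions. Of 74, 5 rose and 8 fell, with a median of -0.0785 and of 0.00557 with the covariate. Cycs, which encodes cytochrome c, was higher at 0.75 ± 0.17 (0.29 ± 0.082 with the covariate) and Cyc1, a subunit of complex III, was lower at -0.32 ± 0.09 (-0.13 ± 0.057). Cox7c, a subunit of complex IV, did not overlap, at 59.3 to 66.8 against 69.4 to 85.6 CPM, a fold of 0.29 ± 0.082 and of 0.14 ± 0.064 with the covariate. Pdha1, of pyruvate dehydrogenase, and the glycolytic kinase gene Pkm were at 0.40 ± 0.11 and -0.23 ± 0.067, and at 0.12 ± 0.053 and -0.09 ± 0.042 with the covariate. Of 70 cytosolic ribosomal protein genes, 5 rose and 0 fell, but 44 folds were negative and the median was -0.0467, and 0.0218 with the covariate. Their sums were 6890 to 7440 CPM under estradiol, 7370 to 7470 in the high and 6360 to 6570 in the low tamoxifen libraries. Rps27 was at 46.3, 53.1, 49.8, 48.5 and 45.4 CPM under estradiol and 55.6, 58.4, 58.4, 56.5 and 59.9 under tamoxifen, and all tamoxifen libraries were above all estradiol ones. Its fold was 0.25 ± 0.063, and 0.21 ± 0.065 with the covariate. Ribosomal protein genes have many processed copies, so reads may be split among them.

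The chaperones that hold steroid receptors ready for ligand were also spread in both directions, with 4 higher and 3 lower of 24. Hsp90aa1, the inducible Hsp90, averaged 869 ± 48.0 CPM under estradiol, 907 in the high and 1342 in the low tamoxifen libraries, and its fold went from 0.43 ± 0.12 to 0.10 ± 0.066. The receptor cochaperone gene Ppid did the same, from 0.53 ± 0.16 to 0.13 ± 0.1. Dnajb1, a heat-inducible cochaperone of Hsp70, was lower without overlap, 44.4 to 54.4 against 32.9 to 43.3 CPM, at -0.31 ± 0.087 and -0.22 ± 0.085. Of 24 endoplasmic reticulum chaperone and stress genes, 3 rose and 1 fell. Dnajb9, a cochaperone of the stress response, had 19.5 CPM in the high and 38.4 in the low tamoxifen libraries against 18.7 ± 1.24 under estradiol, and its fold went from 0.72 ± 0.21 to 0.16 ± 0.11. Sdf2l1, a factor of the same folding system, was lower at -0.77 ± 0.23, and at -0.52 ± 0.23 with the covariate. Canx, the lectin chaperone calnexin, was at 0.41 ± 0.11 and 0.13 ± 0.057, and the stress sensor gene Atf6 at 0.18 ± 0.058 and 0.09 ± 0.048.

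Genes of inhibitory transmission gave 5 calls higher and 1 lower of 22, with a median of 0.125 (0.0298 with the covariate). Gabra5, a GABA-A receptor subunit that is abundant in hippocampus, was at 111, 116, 122, 108 and 104 CPM under estradiol and 126, 126, 164, 141 and 161 under tamoxifen. The groups did not overlap, and the fold was 0.35 ± 0.082 (adjusted p 0.0227 in edgeR) and 0.22 ± 0.072 with the covariate. Gabra2 was likewise apart, 119.9 to 135 against 145 to 190.2 CPM, at 0.36 ± 0.093 and 0.18 ± 0.071. Gabra4 differed mainly in the low libraries, at 95.3 CPM in the high and 150.3 in the low ones against 88.8 ± 5.37 under estradiol, and its fold went from 0.53 ± 0.15 to 0.17 ± 0.092 with the covariate. Of 15 ionotropic glutamate receptor genes 1 rose and 3 fell. Gria2, the AMPA subunit that sets calcium permeability, was at 0.47 ± 0.13 and 0.13 ± 0.073 with the covariate, and the NMDA subunit gene Grin2c at -0.50 ± 0.15 and -0.20 ± 0.097. Grik3, a kainate receptor subunit, was at 46.2, 45.5, 38.0, 39.3 and 51.4 CPM under estradiol and 33.7, 31.2, 29.8, 33.2 and 32.9 under tamoxifen. All tamoxifen libraries lay below all estradiol ones with little difference between high and low, and the fold was -0.45 ± 0.13, and -0.36 ± 0.14 with the covariate. Synaptic vesicle genes gave 0 higher and 3 lower of 25, Cplx1 of the release machinery among them at -0.24 ± 0.079, and at -0.09 ± 0.058 with the covariate.

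Of 14 glucocorticoid and mineralocorticoid genes 2 rose and 4 fell, and of 22 clock genes 3 rose and 3 fell. Per1, which belongs to both lists, was at 65.1, 68.2, 69.0, 72.2 and 80.5 CPM under estradiol and 56.8, 59.4, 48.7, 44.6 and 53.8 under tamoxifen. The groups did not overlap, and the fold was -0.43 ± 0.13 (adjusted p 0.032 in edgeR) and -0.21 ± 0.11 with the covariate. Nfil3, a repressor of clock output, was at 7.64, 7.64, 7.54, 9.76 and 8.47 against 6.39, 4.15, 4.85, 4.17 and 4.95 CPM, also apart, at -0.74 ± 0.19 and -0.51 ± 0.19. Nr1d2, a nuclear receptor of the clock, was within the estradiol range in the 2 high tamoxifen libraries (68.9 CPM on average) and above it in the 3 low ones (116 CPM). Its fold was 0.48 ± 0.13 without the covariate, 0.16 ± 0.093 with it and -0.02 ± 0.083 in the high libraries alone. Clock itself was at 0.34 ± 0.09 and 0.12 ± 0.049. The glucocorticoid receptor gene Nr3c1 was higher at 0.47 ± 0.12 and its target Ddit4, an inhibitor of mTOR signalling, lower at -0.59 ± 0.17. With the covariate these were 0.15 ± 0.061 and -0.29 ± 0.13.

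Among other cell type markers, new neuron genes gave 1 higher and 1 lower of 9. Sox11, a transcription factor of newly formed neurons, was at 14.6, 10.1, 10.2, 16.1 and 13.9 CPM under estradiol and 9.32, 9.29, 6.93, 5.18 and 6.54 under tamoxifen, without overlap, at a fold of -0.81 ± 0.19 (-0.49 ± 0.16 with the covariate). Dcx, the microtubule protein of migrating neurons, differed in the opposite direction, at 0.55 ± 0.13 and 0.26 ± 0.10. For Dcx the high tamoxifen libraries averaged 37.5 CPM against 34.6 ± 4.12 under estradiol, and the low ones 59.7. Calb1, the calcium buffer of dentate granule cells, was higher at 0.55 ± 0.15 and 0.26 ± 0.14, and Neurod6, of excitatory neurons, at 0.45 ± 0.13 and 0.18 ± 0.098. Most excitatory neuron genes went the other way: Neurod6 was the 1 called of 10, and 8 folds were negative. That list's median was -0.176, and 0.0067 with the covariate. Its sums were 4470 to 4980 CPM under estradiol, 4810 to 5120 in the high and 3550 to 4200 in the low tamoxifen libraries. In myelin genes, 1 of 14 rose, Aspa, which breaks down N-acetylaspartate in oligodendrocytes. Aspa was at 7.14, 10.1, 8.68, 9.76 and 8.18 against 11.3, 11.9, 12.8, 15.2 and 13.6 CPM, without overlap, at 0.56 ± 0.15 and 0.37 ± 0.15. Of 15 microglia genes 1 fell, the lysosomal membrane gene Laptm5, at -0.44 ± 0.14 and -0.38 ± 0.15. Astrocyte genes gave 1 higher, the water channel Aqp4 at 0.38 ± 0.12, and 1 lower, the growth factor receptor gene Fgfr3 at -0.34 ± 0.10, and with the covariate these were 0.16 ± 0.11 and -0.16 ± 0.078.

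Tissue next to the hippocampus was unevenly present. All 12 choroid plexus and ependyma genes had positive folds, with a median of 0.877 (0.461 with the covariate) and 0 called, and their summed level ran from 71.9 to 3140 CPM under estradiol and from 91.8 to 3950 under tamoxifen. Meningeal and fibroblast genes gave 0 calls of 12 and a median of 0.293 (0.416), with sums of 183 to 473 CPM and 153 to 1230 CPM. The highest sums of both lists came from tamoxifen replicate 2 in that group. No member of either list was at 0 in all 10 libraries. Without estradiol replicate 2 and tamoxifen replicates 2 and 4, the libraries of high Ttr, 2055 genes were called, 1523 of them among the 2053. The part of these tissues in single folds was otherwise not tested.

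**Figure D4:**
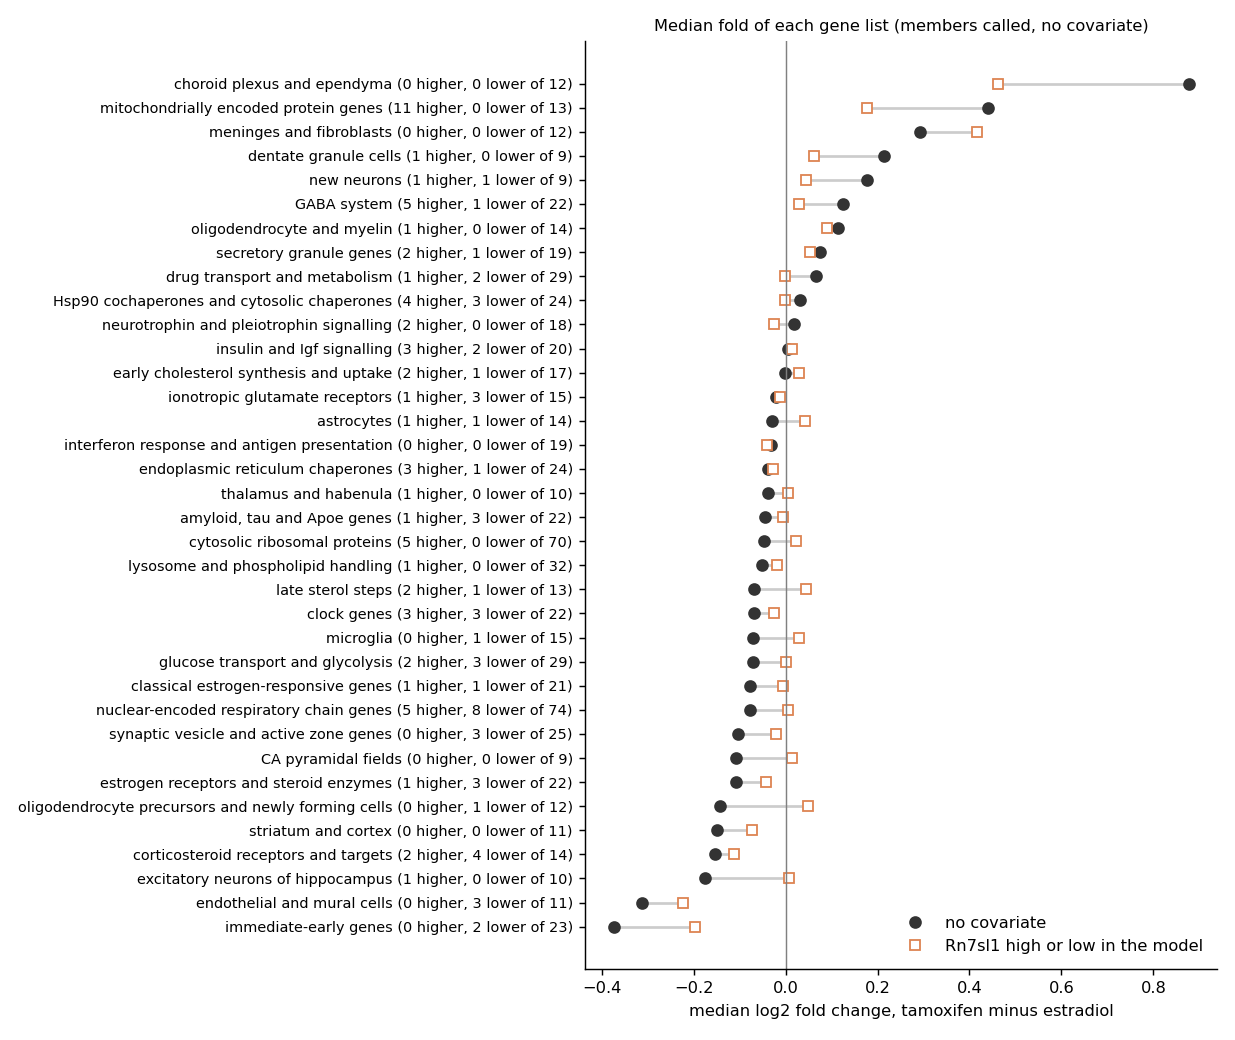
Median log2 fold change of tamoxifen against estradiol over the tested members of each gene list of 9 or more, without (filled circles) and with the Rn7sl1 covariate (open squares); labels give the members called higher and lower without it. Immediate-early and vascular lists have the lowest medians, -0.373 and -0.312, and choroid plexus the highest, 0.877 with 0 of 12 called.

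The largest folds without the covariate belonged to genes of low level, where counting error is widest. Sox21, a transcription factor of progenitor cells, was at 2.99, 2.49, 1.97, 2.29 and 2.34 CPM under estradiol and 0.542, 1.16, 0.867, 0.431 and 1.39 under tamoxifen. The groups did not overlap and high and low tamoxifen libraries had means of 0.852 and 0.895 CPM. Its fold was -1.43 ± 0.29 (adjusted p 0.0227 in edgeR), -1.29 ± 0.33 with the covariate and -1.56 ± 0.34 in the high libraries alone. Cdkl3, a kinase related to the cyclin-dependent kinases, was at 1.99, 2.66, 2.95, 3.01 and 3.80 against 7.58, 7.80, 5.72, 6.18 and 4.26 CPM. It was higher in every tamoxifen library than in any estradiol library, with the 2 high libraries at the top, and the fold was 1.11 ± 0.28, 1.17 ± 0.30 with the covariate and 1.40 ± 0.32 in the high libraries. Col7a1, a collagen of anchoring fibrils, was at 3.99, 2.13, 6.55, 5.54 and 4.67 against 1.30, 3.82, 1.56, 1.87 and 1.68 CPM, where estradiol replicate 2 and tamoxifen replicate 2 overlapped the other group. Its fold was -1.20 ± 0.27 and -1.18 ± 0.30. With the covariate its adjusted p, 0.352 in edgeR with all libraries, was 0.0421 without tamoxifen replicate 2 and 0.0137 without the 3 libraries of high Ttr.

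Further genes higher in tamoxifen with large folds were Mogat1, an acyltransferase of glyceride synthesis (1.78 ± 0.43, and 1.60 ± 0.47 with the covariate), Sycp2 of the synaptonemal complex (1.35 ± 0.37, 1.06 ± 0.39), and Tspan1, a tetraspanin (1.14 ± 0.33, 1.17 ± 0.37). Anxa1, an anti-inflammatory annexin, was at 1.18 ± 0.39 and 0.99 ± 0.43, and Steap4, a metalloreductase, at 1.24 ± 0.43 and 1.04 ± 0.47. Tlr4, the endotoxin receptor, lost most of its fold with the covariate, from 1.07 ± 0.36 to 0.41 ± 0.32, and the neuronal factor gene Neurod4 went from 1.57 ± 0.48 to 0.77 ± 0.48. Lower in tamoxifen were Kifc1, a mitotic kinesin (-1.34 ± 0.43, -1.26 ± 0.48), Fes, a tyrosine kinase (-1.13 ± 0.35, -0.76 ± 0.36), Exosc6 of the RNA exosome (-0.98 ± 0.23, -0.68 ± 0.22) and the forebrain factor genes Otx1 (-1.26 ± 0.37, -0.89 ± 0.38) and Neurog2 (-1.53 ± 0.46, -1.11 ± 0.47). All of these were measured at means between 0.433 and 5.53 CPM in the 2 groups.

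Of the 10 genes with a symbol of smallest p with the covariate, 4 remain to be given, and none of the 10 passed adjustment there. Marchf7, a ubiquitin ligase, was at 35.9, 35, 33.7, 32.3 and 36.8 CPM under estradiol and 43.8, 39.5, 59.8, 59.4 and 55.1 under tamoxifen. It did not overlap, with folds of 0.57 ± 0.11 and 0.31 ± 0.067, and reached an adjusted p of 0.0458 with the covariate in edgeR without tamoxifen replicate 2. Fbxo8, an F-box protein, did not overlap either, at 13.1 to 15.8 against 18.1 to 25.8 CPM, with folds of 0.54 ± 0.10 and 0.44 ± 0.10. Eif2ak2, the kinase that senses double-stranded RNA, was at 0.70 ± 0.13 and 0.41 ± 0.10. Upf1, the helicase of nonsense-mediated decay, was lower, at -0.45 ± 0.10 and -0.22 ± 0.055, and its tamoxifen libraries ran from 65.4 to 93.8 CPM, all under the estradiol range of 96.8 to 111.

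Set beside the vehicle libraries, which both comparisons share, the same genes stood in different places. Of the vehicle libraries, 4 were high and 1 low in Rn7sl1. Without the covariate edgeR called 1 of the 14411 genes (0.00694%) for estradiol against vehicle and 0 (0%) for tamoxifen, and no gene named here was among them. With it 43 (0.298%) were called for estradiol and 0 (0%) for tamoxifen, and the 43 included Vgf, Pon2, Eng and Nr1d2. For Eng the estradiol fold against vehicle was 0.50 ± 0.12 and that of tamoxifen -0.21 ± 0.12, with vehicle libraries at 15.7 to 20.4 CPM. With the covariate these were 0.45 ± 0.097 (adjusted p 0.0386 in edgeR) and -0.10 ± 0.10. Pon2, a lactonase with antioxidant action, was at -0.42 ± 0.10 for estradiol and -0.02 ± 0.098 for tamoxifen, and with the covariate at -0.35 ± 0.063 (adjusted p 0.0109 in edgeR) and -0.16 ± 0.064. For Nr1d2 the values were -0.45 ± 0.13 and 0.02 ± 0.13, and with the covariate -0.36 ± 0.084 (adjusted p 0.0487 in edgeR) and -0.20 ± 0.086. With the covariate and any 1 of the 10 estradiol and vehicle libraries left out, Vgf was called in all 10 fits and Pon2 in 9, the exception being vehicle replicate 5 (-0.30, adjusted p 0.0836 in edgeR). Eng was called in 4 of them, its call being lost without estradiol replicate 3, 4 or 5 or vehicle replicate 2, 3 or 5 (adjusted p up to 0.113 in edgeR). Nr1d2 was called in 2, those without estradiol replicate 2 and vehicle replicate 4 (adjusted p up to 0.177 in the others, in edgeR). With all libraries and the covariate, the Nr1d2 call was also lost with the deposited per-gene factors and with no filter on low counts. It was kept with upper quartile factors and in DESeq2. These fits were chosen after seeing the data. Between tamoxifen and estradiol the fold of Pon2 was 0.40 ± 0.10 (0.19 ± 0.069 with the covariate). Insig1 and Cyp51 had the same order, at -0.31 ± 0.08 and -0.18 ± 0.06 for estradiol and -0.07 ± 0.079 and 0.04 ± 0.059 for tamoxifen, and with the covariate at -0.30 ± 0.078 and -0.16 ± 0.053 against -0.08 ± 0.079 and 0.01 ± 0.054. In these genes, as in Vgf, Sdf2l1 and Nr1d2, the fold against vehicle was smaller in size for tamoxifen than for estradiol in both fits. The order was the opposite for Gabra5, with 0.01 ± 0.082 for estradiol and 0.36 ± 0.081 for tamoxifen (0.05 ± 0.066 and 0.27 ± 0.067 with the covariate), and for Gabra2, Sox21 and Cxcl12, where the fold was smaller in size for estradiol in both fits. Sik1 was at 0.16 ± 0.14 for estradiol and -0.41 ± 0.14 for tamoxifen (0.13 ± 0.13 and -0.34 ± 0.14 with the covariate), and its vehicle libraries ran from 16.4 to 27 CPM, overlapping both other groups. For Ptn the vehicle lay between the treatments, at -0.28 ± 0.13 and 0.32 ± 0.12 (-0.17 ± 0.055 and 0.09 ± 0.056 with the covariate), as it did for Sox11 and Cdkl3 in both fits. Whether a gene's distance from vehicle differed between the treatments is the same test as the comparison of tamoxifen with estradiol itself.

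**Figure D5:**
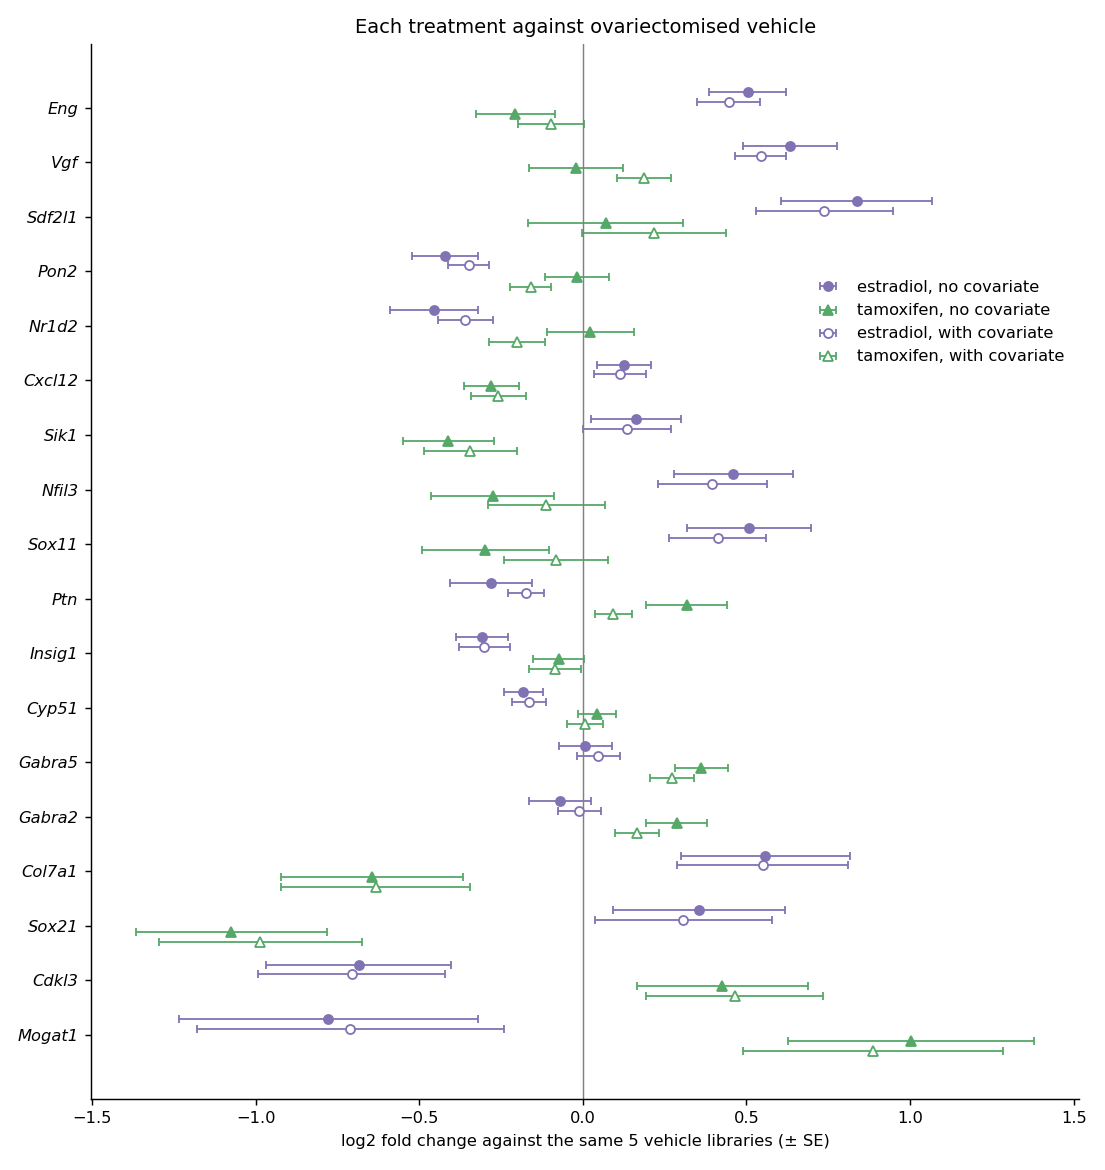
Log2 fold change (± SE) of estradiol (purple circles) and of tamoxifen (green triangles) against the same 5 vehicle libraries for 18 named genes, without (filled) and with (open) the Rn7sl1 covariate. For Vgf, Sdf2l1, Pon2 and Nr1d2 the tamoxifen value is near 0 without the covariate and moves away from 0 with it, and for Gabra5, Gabra2 and Cxcl12 the estradiol value is nearer 0 in both fits.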

How the data were processed

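Rat hippocampal RNA was sequenced in 35 stranded poly(A) libraries as 100 bp paired-end reads with a target of 30 M reads, per the labels' protocols. Salmon and DESeq2 are named in the submitters' processing notes, without versions. The genome build and annotation are not given in the sources used here. The authors deposited expected counts for 15059 genes. These are whole numbers and were tested as deposited. Every listed gene has counts in at least 8 libraries. The other deposited table gives a normalized signal. It served only for per-gene scaling factors in 1 alternative with 0.626% of the factors filled in.

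Counts were tested in edgeR 4.0.16 (R 4.3.3) by the quasi-likelihood F-test in its robust form. TMM scaled the libraries, and filterByExpr, given the groups, chose the genes. All 35 libraries in 7 groups entered, so the spread is shared among groups. P-values were adjusted over 14411 genes by Benjamini-Hochberg, with a threshold of 0.05. The second fit added a term for Rn7sl1 above or below 4.15% of counts. CPM values use TMM-scaled totals. Intervals of folds have 95% confidence. Of the 15059 symbols 13091 matched RefSeq, and 1132 entries have an Ensembl identifier only. The common biological coefficient of variation was 0.152. Depth limits genes of few counts, and counts of reads without molecular identifiers are not independent molecules. P-values measure the spread between these libraries. The series' design text says that each rat was treated by its assignment, and the titles do not say that libraries are from separate animals.

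The members, gene lists and Rn7sl1 cut were chosen with earlier results of these data known. Named genes are a choice from those given by a rule: among called genes with a symbol, 1 CPM or more in either group and at least 4 of 5 tamoxifen libraries on 1 side of the estradiol mean, the 12 largest folds each way; the 10 of smallest p with the covariate; up to 4 called members per list; and fixed steroid, sterol and growth factor genes. Alternatives were DESeq2 1.42.0, upper quartile factors, the deposited factors, no filter, Rn7sl1 as a continuous covariate, the 10 libraries alone, the high libraries alone and each library left out. The fits without choroid plexus libraries or without 1 kind of tamoxifen library were added after seeing the data, as were those of estradiol against vehicle. Some genes that the rule names are not reported here. The edgeR steps were tested on simulated data in which some genes also differed between low and high libraries. Without the covariate, 65 of 100 genes changed 1.5-fold and 92 of 100 changed 2-fold were called, with 31 other calls. With the covariate these were 63, 96 and 7. Fewer genes differed between low and high libraries in the simulation than in the data. The numbers of other calls are therefore no estimate of false calls in these data. Promoters came from a RefSeq table of assembly GRCr8, matched by symbol.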

Additional observations from a re-analysis of the deposited data

Results flagged for a closer look

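Of 202 sets of 5 libraries (97 named genes and 4 library measures in each group), 7 held 1 library whose distance from the nearest other was more than 0.71 of the whole range, or 3.47%. Chance flags about 1 in 20 such sets. Under tamoxifen, replicate 1 had Neurog2 at 1.30 CPM against 0.173 to 0.498 in the other 4, and replicate 2 had Otx1 at 1.66 CPM (0.520 to 0.792), Col7a1 at 3.82 CPM (1.30 to 1.87) and Flt1 at 77.3 CPM (53.0 to 60.0). Replicates 1 and 2 are the tamoxifen libraries of high Rn7sl1. Under estradiol, replicate 2 had Ttr at 2100 CPM against 0.876 to 2.32 and Nr1d2 at 76.7 CPM (67.4 to 68.5). Estradiol replicate 5 had Mt-nd5 at 2980 CPM, below 3360 to 3440 in the other 4.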

How the results depend on the processing

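Without the covariate the count of 2053 genes was 0 with the Rn7sl1 split in the model, 93 with Rn7sl1 as a continuous covariate (74.2% higher), 232 with the deposited per-gene factors (72% higher), 0 in the 10 libraries alone (4220 at an unadjusted p under 0.05) and 0 in the high libraries alone. It ran from 0 to 4228 when 1 library was left out. Added after seeing the data, the fit without the low tamoxifen libraries gave 0 (498 unadjusted) and that without the high ones 5855. DESeq2 gave 2736 calls, upper quartile factors 1973, no filter 1954 and the fit without choroid plexus libraries 2055. The share of calls that were higher was 67.7%, and 51.6, 55.7 and 52.6% without tamoxifen replicate 1, replicate 2 or both. With the covariate the count of 0 became 1 in DESeq2 (Eng) and 1 without choroid plexus libraries (Col7a1), and ran from 0 to 4 without single libraries, the 4 without tamoxifen replicate 2 being Eng, Col7a1, Marchf7 and LOC108350502, the last named after its values were seen. It was 0 with upper quartile factors, the deposited factors (859 unadjusted), no filter and the 10 libraries (733). Over 97 named genes and all alternatives without the covariate, 938 of 2024 folds kept direction and side of the threshold, 1078 lost the call, 3 gained it and 5 turned sign. With the covariate 1527 of 1539 kept both, 5 gained the call and 7 turned sign. Since 0 genes were called there with all libraries, no call could be lost, and the 2 shares cannot be compared. Without the covariate Ebp turned to 0.015 with it and to 0.0079 without choroid plexus libraries, Nr1d2 to -0.019 in the high libraries alone and -0.019 without the low tamoxifen libraries, and Esr2 to 0.046 without estradiol replicate 5 (range without single libraries -0.42 to 0.046). With it Ebp turned to -0.0020 with the deposited factors, -0.039 in the 10 libraries, -0.048 without estradiol replicate 3 and -0.055, -0.0037 and -0.018 without tamoxifen replicates 1, 3 and 5 (range without single libraries -0.055 to 0.10), and Nr1d2 to -0.013 in the 10 libraries. Fits with libraries left out also hold fewer samples, and calls were both lost and gained among them. Why they were lost or gained was not tested. No paired analysis was possible because the titles give the groups no shared replicate numbers. Depth limits genes near 1 CPM, such as Esr2 and Gper1.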
